A study of Mus musculus with 6 samples.

Results

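The genes described are 9 that carry the insulin and insulin-like growth factor (IGF) signal at the cell surface, chosen by symbol: the receptor genes Igf1r, Insr and Igf2r, the docking protein genes Irs1 and Irs2, the adaptor genes Grb10 and Grb14, and the IGF binding protein genes Igfbp2 and Igfbp5. All 9 were among the 16701 genes of the authors' deposited table. Insulin and the IGFs bind a pair of related receptor tyrosine kinases, which phosphorylate the IRS docking proteins and so start the PI3K and AKT pathway towards growth, survival and lipid synthesis. Igf2r removes IGF2 from the cell surface, Grb10 and Grb14 bind the activated receptors and restrain them, and the IGF binding proteins hold the ligands outside the cell. In the mammary gland, IGF1 and its receptor act in the growth of the ducts, and Igfbp5 is known for its rise when milk secretion ends.

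Polyadenylated RNA was sequenced from luminal epithelial cells of the mouse mammary gland in 2 groups, 3 libraries from wild-type control mice and 3 libraries from mice without occludin (genotype Ocln knockout), with all mice 7 weeks old. Occludin is a tight junction protein, and the series is about its part, with its partner FIP5, in the mitotic spindle. The sources used here do not give the strain, the sex of the mice, the design of the knockout allele or the way luminal cells were separated. Nor do they say if the libraries of a group are from different mice, so the p-values measure only the spread between libraries, which may in part be technical. Values per library were not used here: each gene has a mean level over the libraries in normalized counts, a log2 fold change of knockout over control with its standard error (SE), and a DESeq2 p-value. The depth of each library is unknown. For Ocln the authors' deposited table lists -1.15 ± 0.16 (log2 fold change ± SE, adjusted p of DESeq2 = 4.36e-09), so the targeted transcript was lower in the knockout group but was still read.

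Igf1r, the gene of the IGF1 receptor, was higher in Ocln knockout cells, and Grb14, the gene of an adaptor that inhibits the insulin receptor, was lower. The authors' deposited table gives Igf1r a log2 fold change of 0.76 ± 0.16 (± SE, adjusted p = 0.000925 by DESeq2). Its level in the knockout was thus 168.9 percent of that in the control, and the 95 percent interval spanned 135.5 to 210.5 percent. For Grb14 the value in the authors' deposited table is -1.21 ± 0.29 (± SE, adjusted p = 0.00584 by DESeq2), so that 43.4 percent of the control level remained, with an interval of 29.3 to 64.2 percent. The other 7 genes did not pass an adjusted p of 0.05. Thus 1 of the 9 genes rose and 1 fell, where 1.08 percent of all listed genes passed in either direction, 0.808 percent higher and 0.275 percent lower. The 9 genes were chosen with earlier results of these data known, so these counts are not a test of the family. At an unadjusted p under 0.05 the count was again 1 higher and 1 lower, Igf1r and Grb14, against 9.07 percent of all listed genes, 5.23 percent higher and 3.83 percent lower. A positive log2 fold change was listed for 4 of the 9 genes and for 48.8 percent of all listed genes. The median log2 fold change of the 9 genes was -0.08 and that of all listed genes -0.01.

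**Figure D1:**
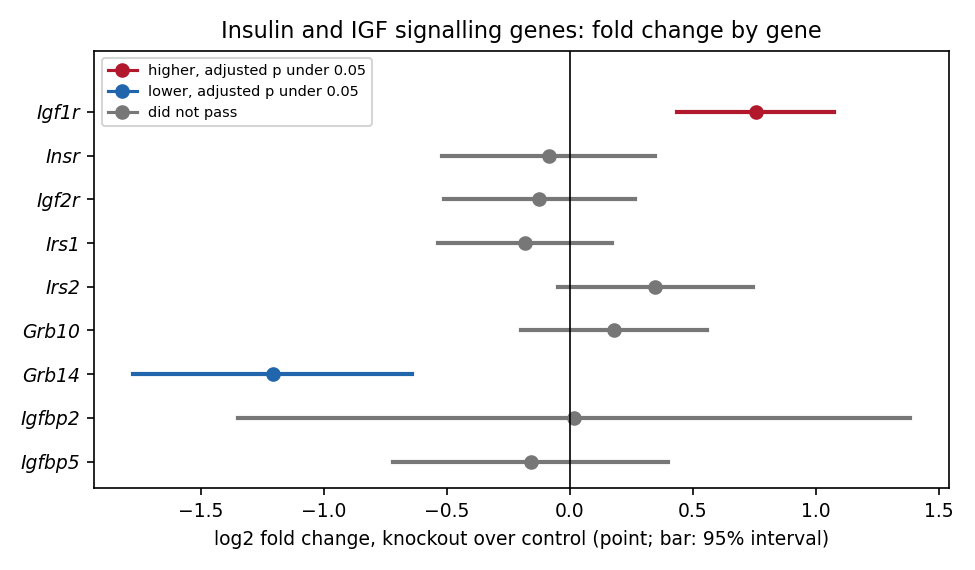
Log2 fold change of knockout over control for each of the 9 genes, with points for the values of the authors' deposited table and bars for the 95 percent interval from its normal approximation. The bar of Igf1r lies wholly above 0 and that of Grb14 wholly below 0, and the bars of the other 7 genes cross 0.

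Among the markers of luminal cell types, only the luminal progenitor list held genes that passed an adjusted p of 0.05 between the same groups. Of 10 luminal progenitor markers, 4 rose (Ltf, Trf, Mfge8 and Wfdc18) and 1 fell (Csn3) at a DESeq2 adjusted p under 0.05. Of all listed genes, 0.808 percent rose and 0.275 percent fell at that threshold. The marker lists were also chosen with earlier results of these data known. Kit, Elf5, Aldh1a3, Cd14 and Ehf did not pass. A positive log2 fold change was listed for 9 of the 10 (median of the list 0.74). The summed approximate level of the 10 markers went from 152885 normalized counts in the control group to 321206 in the knockout group. Ltf, the lactoferrin gene, made up most of that difference, and without it the sums were 132345 and 197575. Of 9 measured hormone-sensing luminal markers, 0 passed the DESeq2 test at either an adjusted or an unadjusted p under 0.05, 7 had a negative log2 fold change (median -0.40), and the summed level was 109577 in the control and 84767 in the knockout group. These levels were computed from each gene's mean level and fold change. In bulk RNA, fewer cells of a type and less RNA per cell cannot be told apart, and the part of these markers in the values of Igf1r and Grb14 was not tested. The 7 pan-luminal markers, keratins 8, 18 and 19 among them, had mean levels from 13156 to 84084 normalized counts in the authors' deposited table. By DESeq2 0 of them passed, and 1 was lower at an unadjusted p under 0.05, against 3.83 percent of all listed genes. The median log2 fold change of the pan-luminal markers was 0.00.

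In both groups, markers of cells outside the luminal lineage summed to far less than the pan-luminal markers, whose sums were 343410 normalized counts in the control and 332784 in the knockout group. The 10 basal and myoepithelial markers summed to 2497 normalized counts in the control and 2150 in the knockout group, with Oxtr as the 1 that fell. Without Oxtr these sums were 1916 and 1951. The 9 fibroblast markers summed to 1613 and 1403, with Dcn as the 1 that fell, and without Dcn to 1055 and 1186. For the 7 endothelial markers the sums were 3112 and 2706, and without Eng 1539 and 1594, the median log2 fold change being 0.02. By DESeq2 0 of the endothelial markers passed, adjusted or not, at a p under 0.05. The 7 measured immune markers summed to 3964 in the control and 6879 in the knockout group, and without Cd74 to 1074 and 1819. All 7 immune markers had a positive log2 fold change (median 0.81), and 0 passed the DESeq2 test, with 1, Lyz2, at an unadjusted p under 0.05. Of all listed genes, 0.275 percent fell at a DESeq2 adjusted p under 0.05, and 9.07 percent had an unadjusted p under 0.05. The sums without a gene leave out the marker whose level differed most, a choice made after the values were seen. The part of these markers in the values of Igf1r and Grb14 was not tested either. Of 7 adipocyte markers only Fabp4 was among the listed genes. Its log2 fold change was -0.14 ± 0.28 (SE) in the authors' deposited table.

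Among the receptors the change was in Igf1r, the tyrosine kinase that binds IGF1 and IGF2. Its mean level was 1663 normalized counts in the authors' deposited table, or about 1237 in the control and 2089 in the knockout group. By p-value it stood 56th of all listed genes. Its SE of 0.16 in the authors' deposited table was close to the median of 0.17 for the 200 genes nearest to it in mean level. The authors' own column nevertheless calls it Stable, since no gene they called had an absolute log2 fold change below 1.01. It shares this with 67 genes, itself included, of the 181 that passed an adjusted p of 0.05. The gene spans 280842 bases of chromosome 7 (67952827 to 68233668, plus strand, GRCm38).

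Insr, the insulin receptor gene, had a log2 fold change of -0.08 ± 0.22 (SE) at a mean level of 1780 normalized counts in the authors' deposited table (DESeq2 adjusted p = 0.967). Its interval ran from 69.8 to 127.3 percent of the control level, so a rise of the size of that of Igf1r lies outside it. The products of Igf1r and Insr also combine into hybrid receptors, and their transcripts can be set against each other per length. Per kilobase of exon, Igf1r stood at 0.553 times the level of Insr in the control group and at 0.990 times in the knockout group. The difference of their log2 fold changes was 0.84, and it was not tested, because the SE of a difference within the same libraries cannot be had from the table. Insrr, the gene of the insulin receptor-related receptor, was close to the lowest level listed and had a log2 fold change of -0.10 ± 0.69 (SE) in the authors' deposited table.

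Igf2r, whose product carries IGF2 and mannose 6-phosphate-tagged enzymes to lysosomes, had the highest level of the receptor genes. It stood at 4878 normalized counts with a log2 fold change of -0.12 ± 0.20 (± SE, adjusted p = 0.944 by DESeq2) in the authors' deposited table. Its interval was 70.1 to 120.1 percent of the control level. Airn, the noncoding RNA transcribed against it and known for silencing the paternal Igf2r allele, had a log2 fold change of -0.15 ± 0.27 (SE) at 158 normalized counts in the authors' deposited table. Whether reads were counted by strand is not given in the sources used here, so reads of the overlapping genes cannot be told apart. Per kilobase, Igf2r was 7.42 times the level of Igf1r in the control and 4.03 times in the knockout group, a difference that was not tested.

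**Figure D2:**
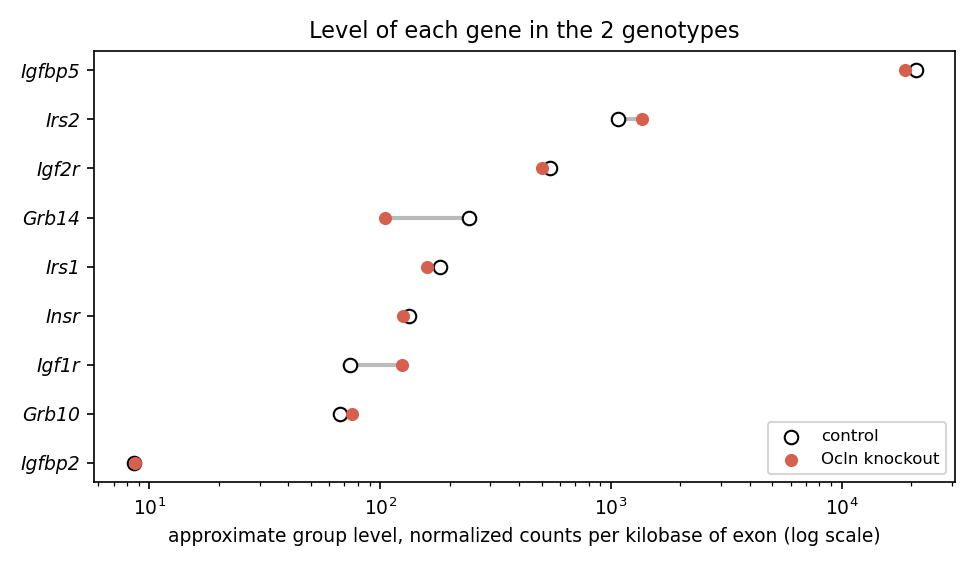
Approximate level of each of the 9 genes in normalized counts per kilobase of exon, on a log scale, with open circles for the control and filled circles for the knockout group. Igf1r moves from 73.6 to 124 and Grb14 from 243 to 105, and the other 7 pairs of circles lie closer together.

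The docking proteins that receive the signal did not pass. Irs2, the docking protein gene with the higher level, had a log2 fold change of 0.35 ± 0.20 (SE) at 7730 normalized counts in the authors' deposited table (DESeq2 adjusted p = 0.647, unadjusted p = 0.0856). In percent of the control, this is 127.4 with an interval of 96.7 to 167.8 percent. Irs1 had a log2 fold change of -0.18 ± 0.18 (SE) at 1563 normalized counts in the authors' deposited table (DESeq2 adjusted p = 0.871). Its interval of 69.1 to 112.7 percent leaves out the rise seen for Igf1r and the fall seen for Grb14. Per kilobase, Irs2 was 5.92 times the level of Irs1 in the control and 8.55 times in the knockout group, a difference that was not tested. The wider list of docking and scaffold proteins had 9 measured genes. By DESeq2 0 of them passed at a p under 0.05, adjusted or not, against 1.08 and 9.07 percent of all listed genes. A positive log2 fold change was listed for 7 of them and for 48.8 percent of all listed genes. The median log2 fold change of that list was 0.25. Gab1, a scaffold that recruits PI3K, had the second highest mean level of that list, and its log2 fold change was 0.44 ± 0.25 (SE) in the authors' deposited table (DESeq2 adjusted p = 0.62).

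Of the GRB7 family, adaptors with a shared layout that bind activated receptors, Grb14 fell and its relatives did not pass. The mean level of Grb14 was 1250 normalized counts in the authors' deposited table, or about 1743 in the control and 756 in the knockout group, and by p-value it stood 88th of all listed genes. It is the 1 gene of the 9 that the authors also called, as Down, where 2.79 percent of all listed genes have a call in their column. Its SE of 0.29 in the authors' deposited table was larger than that of 94.5 percent of the 200 genes nearest in mean level, whose median SE was 0.17. The size of its change is therefore less precisely known than that of Igf1r. Grb14 is a gene of chromosome 2 (64912476 to 65024987, minus strand, GRCm38), and 0 of the 9 genes lie on the chromosome of Ocln.

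Grb10, an imprinted gene whose product also restrains both receptors, had a log2 fold change of 0.18 ± 0.19 (SE) at 646 normalized counts in the authors' deposited table (DESeq2 adjusted p = 0.883). Its interval was 87.1 to 147.4 percent of the control level. Grb7, the family member known for its amplification together with ERBB2, had a log2 fold change of -0.31 ± 0.21 (SE) at 1924 normalized counts in the authors' deposited table (DESeq2 adjusted p = 0.743). Per kilobase, Grb14 stood at 3.64 times the level of Grb10 in the control group and at 1.39 times in the knockout group. The log2 fold change of Grb14 was lower than that of Grb10 by a difference of -1.39, which was not tested.

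The IGF binding proteins were dominated by Igfbp5. With a mean level of 119066 normalized counts in the authors' deposited table it ranked 7th of all listed genes and held 0.506 percent of the summed levels. Its log2 fold change was -0.16 ± 0.29 (± SE, adjusted p = 0.951 by DESeq2) in the authors' deposited table, with an interval of 60.8 to 132.0 percent of the control level. That SE exceeded those of 89.0 percent of the 200 genes nearest in mean level, whose median was 0.19. Igfbp2, which lies 5457 bases from Igfbp5 on chromosome 1 in the opposite orientation, ranked 15265th of all listed genes in mean level. It had 15.9 normalized counts and a log2 fold change of 0.02 ± 0.70 (SE) in the authors' deposited table (DESeq2 adjusted p = 0.995). The interval of Igfbp2 runs from 39.3 to 260.9 percent of the control level, and values as low as that of Grb14 and as high as that of Igf1r both lie inside it.

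**Figure D3:**
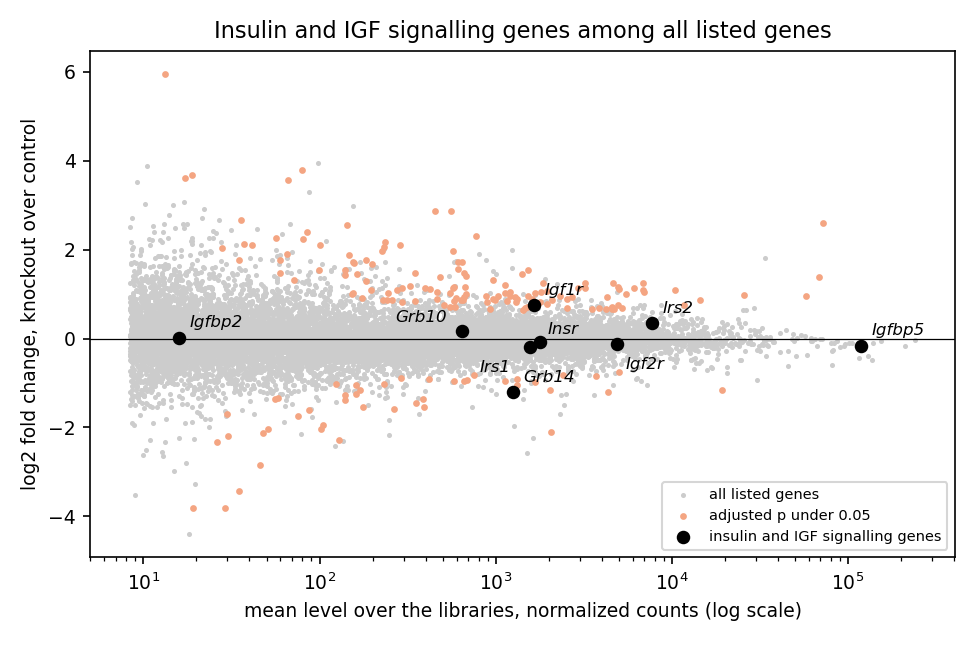
Log2 fold change of knockout over control against mean level in normalized counts (log scale) for all 16701 listed genes, with those past an adjusted p of 0.05 in orange and the 9 insulin and IGF genes in black. Igf1r and Grb14 stand at the upper and lower edge of the cloud at similar mean levels of 1663 and 1250, Igfbp5 at its far right and Igfbp2 at its far left.

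Of 7 measured IGF binding protein genes, Igfals included, 0 passed the DESeq2 test at an adjusted or an unadjusted p under 0.05, and the median log2 fold change was 0.02. Igfbp4 followed Igfbp5 in mean level with 304 normalized counts and a log2 fold change of 0.08 ± 0.19 (SE) in the authors' deposited table. Per kilobase, Igfbp5 was 104 times the level of Igfbp7, the next of the binding proteins on that scale. The proteases that cut IGF binding proteins, with the stanniocalcins that inhibit them, held a gene that rose. Adamts1, a secreted metalloprotease reported to cleave several extracellular proteins, had a log2 fold change of 1.24 ± 0.18 (± SE, adjusted p = 4.36e-09 by DESeq2) in the authors' deposited table. Stc2, an inhibitor of the IGFBP protease Pappa, had a log2 fold change of -0.65 ± 0.31 (SE) at 20722 normalized counts in the authors' deposited table, short of the threshold (DESeq2 adjusted p = 0.495, unadjusted p = 0.0354). Pappa itself, at only 20.5 normalized counts, was also lower at -1.34 ± 0.61 (SE, DESeq2 adjusted p = 0.451, unadjusted p = 0.0269) in the authors' deposited table. Stc1, the other stanniocalcin, went the other way at 0.77 ± 0.33 (SE, DESeq2 adjusted p = 0.392, unadjusted p = 0.0190) in the authors' deposited table. In that list of 5 measured genes 1 rose, and at an unadjusted p under 0.05 there were 2 higher and 2 lower. Of all listed genes, 1.08 percent passed the DESeq2 test in either direction, and 9.07 percent had an unadjusted p under 0.05. The list was chosen with earlier results of these data known, so its counts are not a test of it.

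Of the ligand genes Igf1, Igf2, Ins1 and Ins2, only Igf1 was among the listed genes. It ranked 14231st of all listed genes in mean level, with 26.0 normalized counts. Its log2 fold change was 0.75 ± 0.48 (± SE, adjusted p = 0.712 by DESeq2) in the authors' deposited table. Stromal cells of the gland, macrophages and the liver are known sources of Igf1. Median log2 fold changes were 0.01 for the fibroblast markers given above and 0.81 for the immune markers, and their part in the Igf1 value was not tested.

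On a scale per kilobase of exon, the mean levels of the 9 genes covered a wide range. Igfbp5 led with 19824.5 normalized counts per kilobase, followed by Irs2 with 1222 and Igf2r with 524. Grb14 (174) and Irs1 (171) stood beside each other on that scale, then came Insr (129), Igf1r (99.0) and Grb10 (71.1), with Igfbp2 last at 8.59. The spread of these levels over the libraries is not known, so the order of neighbours such as Grb14 and Irs1 is not established. In the knockout group Igf1r (124), Insr (126) and Grb14 (105) came to similar approximate levels per kilobase, while in the control group they were 73.6, 133 and 243.

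Beside the 9 genes, 86 genes of the wider pathway were measured, each counted once, and 1 rose (Adamts1) and 1 fell (Srebf1). This is 2.33 percent of them, against 1.08 percent of all listed genes, and their median log2 fold change was 0.04. At an unadjusted p under 0.05 there were 5 higher and 5 lower among these 86, or 11.6 percent against 9.07 percent of all listed genes. In the lists of negative regulators, PI3K and AKT, mTOR, FOXO and metabolic genes, 66 genes other than the 9 were measured, and 1, Srebf1, passed. Srebf1, the transcription factor gene through which insulin induces lipid synthesis, had a log2 fold change of -0.74 ± 0.18 (± SE, adjusted p = 0.00801 by DESeq2) in the authors' deposited table. The remaining 9 measured insulin-induced metabolic genes did not pass, among them Scd1, a fatty acid desaturase gene with the highest mean level of the list, at -0.06 ± 0.35 SE in the authors' deposited table.

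Of all listed genes, 1.08 percent passed the DESeq2 test and 9.07 percent had an unadjusted p under 0.05. In the PI3K and AKT list of 17 genes, 0 passed the DESeq2 test, and at an unadjusted p under 0.05 there were 2 higher and 1 lower. Its members with the highest mean levels were Inppl1, the SHIP2 lipid phosphatase gene (0.13 ± 0.19 SE), and Pik3r1, a regulatory subunit of PI3K (0.21 ± 0.17 SE), in log2 fold change in the authors' deposited table. Of 15 TSC and mTOR genes 0 passed, 1 was higher at an unadjusted DESeq2 p under 0.05, and 11 had a positive log2 fold change. The share of all listed genes with a positive log2 fold change was 48.8 percent. The highest levels there were those of Eif4ebp2, a translation repressor (-0.02 ± 0.14 SE), and Deptor, an mTOR inhibitor (-0.47 ± 0.30 SE), in log2 fold change in the authors' deposited table.

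Receptor phosphatases and other negative regulators did not pass either, with 0 of 12 at a DESeq2 p under 0.05, adjusted or not. Beside this list and the FOXO list below stand 1.08 percent of all listed genes with adjustment and 9.07 percent without. Nedd4, a ubiquitin ligase that binds Grb10 (0.06 ± 0.15 SE), and Socs3, a cytokine-induced inhibitor of receptor signalling (-0.34 ± 0.32 SE), had the highest mean levels of that list, values being log2 fold changes of the authors' deposited table. FOXO factors are shut out of the nucleus by AKT, and their known target genes include Insr and Irs2. In the list of 14 measured FOXO factors and targets 0 passed the DESeq2 test, 1 was lower at an unadjusted p under 0.05, and the median log2 fold change was -0.08. Trib1 (-0.18 ± 0.20 SE) and Txnip (-0.78 ± 0.36 SE, DESeq2 adjusted p = 0.468), a regulator of glucose uptake, had its highest mean levels, with log2 fold changes from the authors' deposited table.

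**Figure D4:**
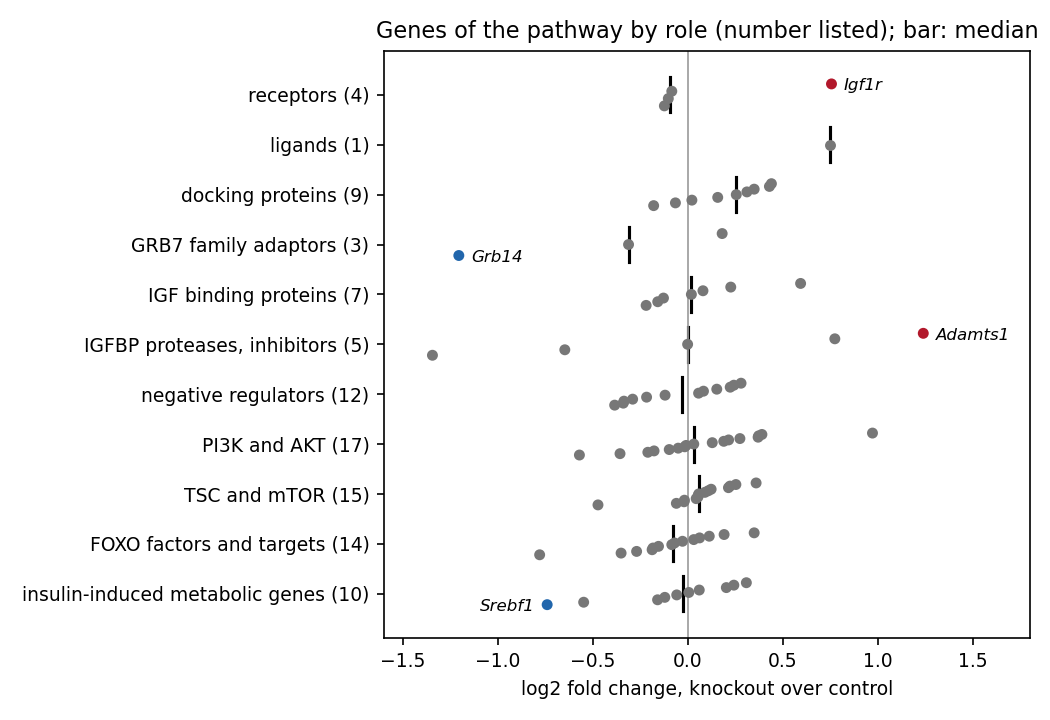
Log2 fold change of knockout over control for each measured gene of the 11 pathway lists, 1 point per gene, with a bar at each list's median and the number of genes in brackets. Igf1r and Adamts1 (red) rose, Grb14 and Srebf1 (blue) fell, and the grey points did not pass an adjusted p of 0.05.

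For the 7 insulin and IGF genes that did not pass, the log2 fold changes lay between -0.18 and 0.35. The smallest absolute Wald score that passed in the authors' deposited table was 3.46. With their SE, these genes apart from Igfbp2 would have needed an absolute log2 fold change of 0.62 to 0.99 to pass, and Igfbp2 one of 2.41. Smaller estimates would not have passed, so true changes of such sizes in these genes may have been missed.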

How the data were processed

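Counts divided by DESeq2 size factors and averaged over the libraries, a signal, stand in the authors' deposited table beside the log2 fold change, its SE (log2 units), the Wald score, the p-value and adjusted p-value, and a call of Up, Down or Stable, per the file headers. The submitters' processing notes name DESeq2 and mm10, while the sources used here do not give the aligner, counter, annotation or model. The direction was taken from the table's name. Wald scores equalled the fold change over its SE to within 2.6e-07. No count model was fitted here, since the table gives 1 value per gene. Intervals of 95 percent are normal ones from the SE. Approximate group levels assume equal numbers of libraries in the mean. Lengths are merged exons of GENCODE M21 (GRCm38), matched by symbol for 16225 genes, all 9 among them, and understate levels where short isoforms dominate. Named genes are the 9, Ocln, and, of each of 11 pathway lists, genes past the threshold and the 2 with the highest mean level. Oxtr, Dcn, Eng, Cd74, Ltf, Lyz2, Fabp4, Insrr, Airn and Igfbp7 were named after their values were seen. So were Stc1, Pappa, Trf, Mfge8, Wfdc18, Csn3, Kit, Elf5, Aldh1a3, Cd14 and Ehf. Members and lists were chosen with earlier results of these data known. Adjustments were tested on simulated data. Python 3.11.15, pandas 2.3.3 and scipy 1.17.1 were used.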

Additional observations from a re-analysis of the deposited data

How the results depend on the processing

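Igf1r and Grb14 both passed at an adjusted p under 0.01, among genes with mean levels from 50 upward, with Wald scores scaled down for an inflation factor of 1.18, and with scores centred in 20 bins of mean level or of transcript length. Centring by transcript length moved the Wald score of Igf1r from 4.66 to 4.16 and its adjusted p from 0.000925 to 0.00616. For Grb14 the score moved from -4.17 to -4.36 and its adjusted p from 0.00584 to 0.00309. Over the 7 settings that give a p-value, Holm adjustment among them, that of Igf1r ran from 0.000745 to 0.0516 and that of Grb14 from 0.00309 to 0.517. A minimum absolute log2 fold change of 1 left 1 of the 9 genes, Grb14, and 2 of the 4 pathway genes, Grb14 and Adamts1. The authors' own calls also held Grb14 alone of the 9, and 3 pathway genes, Grb14, Pappa and Adamts1. Pappa had a DESeq2 adjusted p of 0.451, so their call does not require an adjusted p under 0.05. Holm adjustment of the DESeq2 p-values left 0 of the 9 genes, where 2 have an unadjusted p under 0.05, and 1 pathway gene, Adamts1. The 7 genes that did not pass did not pass under any setting run. The stricter threshold, the fold change minimum, Holm adjustment and the inflation scaling could only remove genes, so they are no further test of these 7. Igfbp2 was not among the genes with mean levels from 50 upward. Fold changes less the median of all genes moved by less than their SE. No paired analysis was possible because the table holds no values per library, and leaving out each replicate was not run for the same reason.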
